A study of Mus musculus with 2 samples.

Results

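Megabase stretches of the mouse genome that hold few CTCF sites, here called deserts, numbered 691 of the 2362 fixed 1-Mb bins on chromosomes 1 to 19 that had at least 500 extract reads (29.3% called by the rule). The 1-Mb bins up to the last read of each chromosome numbered 2472 in all. A desert was a bin with at most 3 site bins, and a site bin was a 1-kb bin holding 10 or more reads of the CTCF immunoprecipitate and at most 10 reads of the extract. Deserts were thus chosen from the ChIP and extract counts themselves, so their low site counts are a description and not a result.

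The series holds 1 library of DNA immunoprecipitated with an antibody against CTCF and 1 library of whole-cell extract, chromatin that was sonicated but not immunoprecipitated. The cells of both libraries were V6.5, a line of male mouse embryonic stem cells whose genotype is 129SvJaexC57BL/6. They were used at passages 10 to 15, after growth on irradiated MEFs (feeder fibroblasts) and passages on gelatin to remove those. The ChIP library held 2371134 reads from 1 lane and the extract 4691104 reads from 2 lanes. On chromosomes 1 to 19 this gave 0.944 and 1.86 reads per kb. There is no replicate of either library, so no difference below has a replicate check, no test was made, and intervals (95%) cover counting error only.

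CTCF is a zinc-finger protein that binds a long DNA motif, blocks contact between enhancers and promoters at insulators, and halts cohesin at the bases of chromatin loops. Its sites are known to be denser where genes are dense and sparse in gene-poor stretches, many of which lie against the nuclear lamina in late-replicating chromatin. In such stretches there are few CTCF sites at which cohesin could be halted. Gene content and sequence of the deserts were not analysed here, because coordinates are in mm8 and the reference tables are in another build.

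The deserts formed one end of a continuous distribution and not a separate class. Among bins with enough extract reads, 237 held 0 site bins, 173 held 1, 137 held 2 and 144 held 3. Just outside the limit, 105 bins held 4 and 90 held 5. The counts showed no gap at the limit of 3, though they did not fall at every step, as the plot of site bins per megabase shows.

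**Figure D1:**
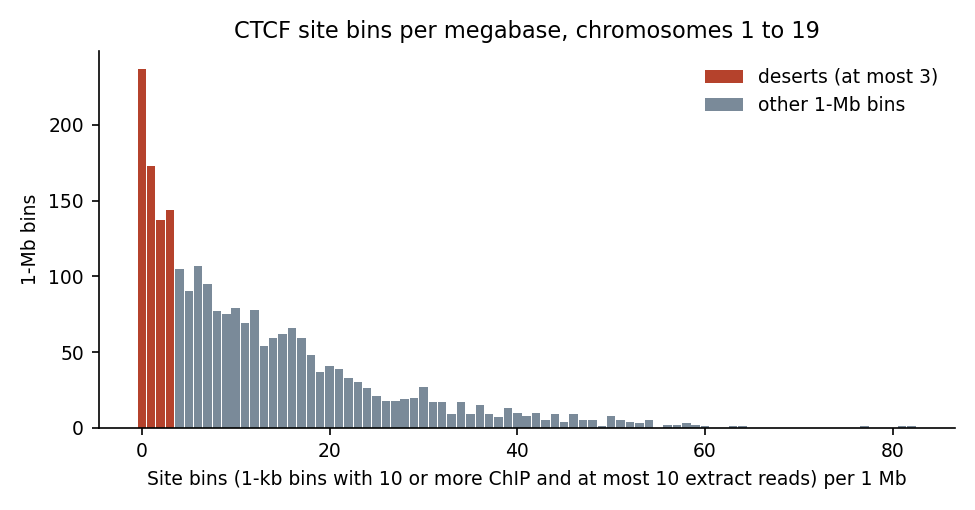
Number of 1-Mb bins (vertical axis) by the number of CTCF site bins they hold (horizontal axis), for bins of chromosomes 1 to 19 with at least 500 extract reads. Red bars are the 691 deserts and grey bars the other 1671 bins, and the bars fall from 144 at 3 site bins to 105 at 4 without a gap.

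Bins on either side of the limits overlapped in reads. Bins with 3 site bins had a median of 539.5 ChIP reads (215 to 920) and 1454.5 extract reads, and bins with 4 had 624 (339 to 864) and 1541. At the limit on extract reads, 10 deserts had between 502 and 596 reads, with a median of 215 ChIP reads. Another 11 bins had 402 to 478 extract reads and were left out, of which 9 held at most 3 site bins. In all, 110 bins fell below 500 extract reads and 61 of these had no extract read at all.

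Over the 691 deserts the ChIP library gave between 131 and 920 reads per bin, with a median of 438. The extract gave 502 to 3067 reads, with a median of 1291. The other 1671 bins had medians of 1093 ChIP reads (339 to 3742) and 2194 extract reads (522 to 6609). The ranges overlap in both libraries. Deserts made up 29.3% of the bins but held 13.5% of the ChIP reads and 20.3% of the extract reads. They held 879 of 29056 site bins (3.03%), where site bins were 1.5% of the 1-kb bins with a read.

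Deserts lay next to one another. They formed 301 runs of adjacent bins, of which 148 were single bins and 62 were pairs. The 91 runs of 3 or more bins held 419 deserts (60.6%) and occurred on all 19 chromosomes. Of 680 deserts followed by a bin with enough extract reads, 390 (57.4%) were followed by another desert. Of 1638 other bins, 287 (17.5%) were. The next bin's label was not part of the rule, but these shares come from the same 2 libraries and were not tested.

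The 10 longest runs spanned 7 to 11 Mb and lay on chromosomes 1, 2, 3, 4, 5, 6, 14 and 15. The longest with fewest sites lay at chr14:87000001-98000000 (mm8, as all coordinates here). It held 4 site bins in 11 Mb, and 8 of its 11 bins held none. ChIP reads per bin were 302 to 630 (median 373) and extract reads 863 to 1722 (median 1092). The highest value in both libraries belonged to the last bin of the run, from 97000001 to 98000000. The stretch without a site bin ran for 5649 kb, from 91648001 to 97297000, and was the longest in any run.

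The run bounds on chromosome 14 differed on the 2 sides. The nearest site bin to the left lay 600 kb away, from 86399001 to 86400000, with 16 ChIP and 4 extract reads. To the right it lay 25 kb away, from 98025001 to 98026000, with 34 and 4 reads. The 1-Mb bins next to the run held 6 and 5 site bins, so the run ended in bins that were themselves poor in sites.

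The other run of 11 Mb lay at chr15:14000001-25000000 and held 8 site bins. ChIP reads per bin were 305 to 460 (median 371) and extract reads 905 to 1189 (median 1138), a narrower range than on chromosome 14 in both libraries. A site bin with 11 ChIP and 1 extract reads stood 3 kb before its left edge, and the nearest on the right stood 359 kb away with 25 and 4 reads. Its longest stretch without a site bin was 4648 kb. The next bin to the right held 15 site bins.

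The runs of 10 Mb lay at chr5:54000001-64000000, with 8 site bins, and at chr4:70000001-80000000, with 9. On chromosome 5, ChIP reads per bin were 298 to 615 and extract reads 987 to 1793. On chromosome 4 they were 289 to 516 and 1447 to 2105. The ChIP ranges overlap widely while most extract values on chromosome 4 are higher, as they are in the bins of that chromosome generally. The chromosome 5 run was framed by richer bins, with 19 site bins to the left and 15 to the right.

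The run of 9 Mb lay at chr2:40000001-49000000, with 6 site bins, 343 to 643 ChIP reads and 1109 to 1799 extract reads per bin. Of the 4 runs of 8 Mb, the one at chr3:42000001-50000000 and the one at chr14:105000001-113000000 each held 4 site bins. The latter contained the next longest empty stretch, 4907 kb from 105649001 to 110556000. Chromosome 14 thus held runs of both 11 and 8 Mb, and it had 16 runs in all.

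The remaining runs of 8 Mb were at chr5:79000001-87000000, with 7 site bins, and at chr6:9000001-17000000. The chromosome 6 run was the richest of the 10, with 15 site bins, and only 1 of its 8 bins held none. The run of 7 Mb named here lay at chr1:100000001-107000000 and held 3 site bins. It had 344 to 508 ChIP and 1562 to 2051 extract reads per bin. Both extract lanes contributed to it, with 6466 and 5548 reads.

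Long runs were emptier than single deserts. Single deserts held a mean of 1.69 site bins, those in runs of 2 held 1.44, those in runs of 3 to 5 held 1.16, and those in runs of 6 or more held 0.921. ChIP reads outside site bins followed the same order, with means of 506, 442, 406 and 387 per Mb and medians of 515, 447, 396 and 371.5. For the extract the order depended on the measure. Its medians were 1485, 1293, 1231 and 1187 per Mb, but its means were 1505, 1336, 1277 and 1302, higher in the longest runs than in runs of 3 to 5. The ranges of these classes overlap throughout, and the order was not tested. There were 9 runs of 2 or more bins, 3 of them of 3 or more, without any site bin.

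Deserts were unevenly spread over the chromosomes. Chromosome 3 had the highest share, with 66 of 156 bins (42.3%, exact binomial interval 34.4 to 50.5). Chromosome 14 followed with 43 of 114 (37.7%, 28.8 to 47.3) and chromosome 4 with 54 of 149 (36.2%, 28.5 to 44.5). The lowest shares were on chromosome 11, with 18 of 119 (15.1%, 9.22 to 22.8), chromosome 19, with 10 of 59 (16.9%, 8.44 to 29.0), and chromosome 7, with 31 of 130 (23.8%, 16.8 to 32.1). Chromosome 3 lies clear of chromosome 11 by these intervals, while neighbours in this order overlap. Neighbouring bins are alike, so these intervals are too narrow.

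**Figure D2:**
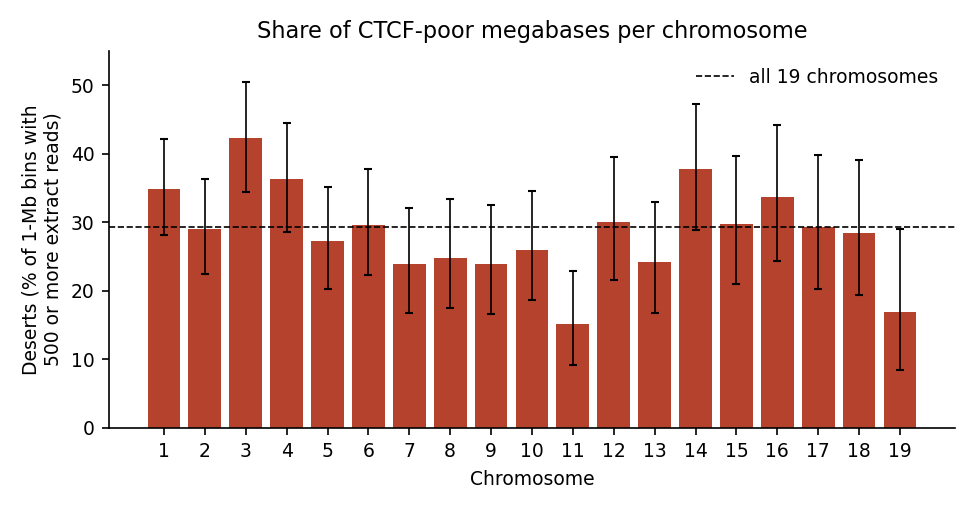
Deserts as a percent of the 1-Mb bins with at least 500 extract reads (vertical axis) for each chromosome (horizontal axis). Bars start at 0, error bars are exact 95% binomial intervals over bins, and the dashed line is the share over all 19 chromosomes, 29.3%. Chromosome 3 stands highest at 42.3% and chromosome 11 lowest at 15.1%.

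The longest run on a chromosome ranged from 3 Mb on chromosomes 7 and 11 to 11 Mb on chromosomes 14 and 15. Over all chromosomes the deserts were least frequent in the last part of the sequence. With each chromosome divided into 4 equal parts from position 0, which in the mouse lies at the centromere, deserts were 34.4%, 33%, 30.9% and 19.1% of the bins. These parts were not compared by a test.

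Background reads were the reads in 1-kb bins that were neither site bins nor next to one and held at most 10 extract reads. In deserts the ChIP background was 430 reads per Mb, against 808 in the other bins, a ratio of 0.532 (exact interval 0.530 to 0.534). Over the 691 deserts it ran from 131 to 859 (median 418), and over the other bins from 263 to 1576 (median 802). The sets overlap, but the desert median lies below the lower quartile of the other bins, 657.

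The extract background was lower in deserts too. It was 1342 reads per Mb against 2142, a ratio of 0.626 (0.625 to 0.628). Its desert median was 1281 (485 to 3030) and that of the other bins 2173 (633 to 4225). The extract lanes taken singly gave ratios of 0.614 and 0.641. So both libraries held fewer reads in deserts also away from the sites. The limit of 500 extract reads applied to deserts and other bins alike.

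The ChIP background fell further than that of the extract. Deserts had 0.320 background ChIP reads per background extract read and the other bins 0.377. The quotient was 0.849 (0.845 to 0.853, from the 4 counts on a log scale). The SD of this ratio was 0.0538 over deserts and 0.0559 over the other bins, and 0.0354 and 0.0402 without chromosomes 1 and 4. The members were chosen for few ChIP reads in 1-kb bins of the same library, so this difference too is a description.

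Within each of the 19 chromosomes all 3 quotients lay below 1. For ChIP background the desert-to-other ratio ran from 0.467 on chromosome 17 to 0.618 on chromosome 10. For extract it ran from 0.540 on chromosome 7 to 0.690 on chromosome 10. For ChIP per extract read it ran from 0.760 on chromosome 4 to 0.942 on chromosome 13. The direction of the pooled values was thus the same inside every chromosome.

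Over chromosomes 1 and 4 together, where extract reads are raised on chromosome 1 and on most of chromosome 4, the quotient was lower. Their 121 deserts had a median of 0.234 background ChIP reads per extract read, against 0.343 in the 570 deserts elsewhere. The ChIP background of these groups was close, at medians of 396 and 424 reads per Mb. The extract background was 1691 against 1230. The first 20 Mb of chromosome 4 differed from the rest of it. The 9 deserts there had ratios of 0.318 to 0.388 (median 0.358), while the 45 deserts beyond 20 Mb had 0.151 to 0.314 (median 0.241), a division chosen after the values were seen. Without these chromosomes the quotient of deserts to other bins was 0.873 (0.869 to 0.877).

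Across the 570 deserts outside chromosomes 1 and 4, ChIP and extract background rose together, with a Pearson correlation of 0.927 and a Spearman correlation of 0.933. Over all 691 deserts these were 0.747 and 0.751. The points are neighbouring bins of the same libraries and share the number of positions to which reads could be aligned. The scatter of background reads shows the deserts as the lower end of one band of bins.

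**Figure D3:**
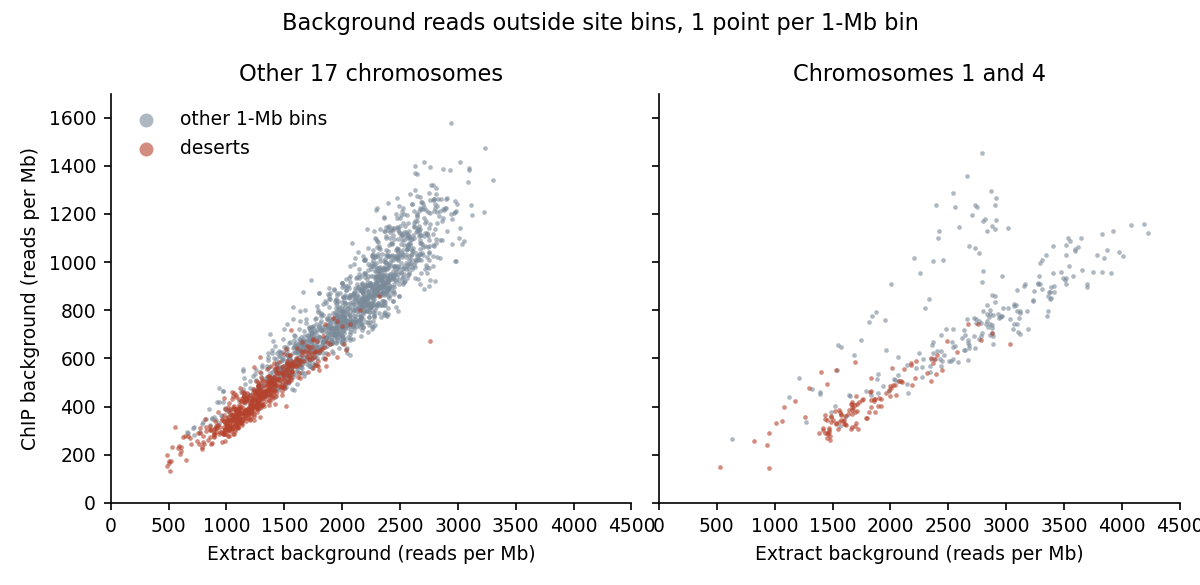
ChIP background (vertical axis) against extract background (horizontal axis), both in reads per Mb outside site bins, 1 point per 1-Mb bin, for 17 chromosomes on the left and chromosomes 1 and 4 on the right. Deserts (red) sit at the lower end of the band of the other bins (grey). On chromosomes 1 and 4 the desert medians are 396 ChIP and 1691 extract reads per Mb, against 424 and 1230 on the other chromosomes.

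Coverage moved with the deserts. A median of 727 of 1000 1-kb bins held a read of either library, against 888 in the other bins. The extract had no read in 346 of the 1-kb bins of the median desert, against 170. Its part in the low site counts was not tested. With only the covered 1-kb bins as exposure, the desert-to-other ratio was 0.636 for ChIP and 0.749 for the extract.

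The share of bins called deserts fell with their extract reads. Outside chromosomes 1 and 4, deserts were 79 of 101 bins with 500 to 999 extract reads (78.2%) and 382 of 524 with 1000 to 1499 (72.9%). They were 19.5% of the 524 bins with 1500 to 1999 reads and 6 of 590 with 2000 to 2499 (1.02%). Above that, 1 of 260 bins with 2500 to 2999 reads was a desert. Site bins per 1000 extract reads were 2.4, 2.23, 4.67, 7.65 and 11.7 in these bands in turn. A site bin needs a fixed number of ChIP reads, so its frequency need not scale with reads. The part of coverage in these values was not tested.

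Inside an extract band the ChIP background still differed. Among bins with 1000 to 1499 extract reads outside chromosomes 1 and 4, deserts had a median of 415 ChIP background reads per Mb and the other bins 509. Their extract background also differed, at 1220 and 1361. Between 1500 and 1999 reads the ChIP medians were 586 and 664, and those of the extract 1618 and 1735. Per extract read the desert median was lower in both bands, 0.338 against 0.378 and 0.356 against 0.378. In the band of 500 to 999 reads the extract background went the other way, at 889 in deserts and 865 in the other bins. The ChIP background was again lower in deserts there, at 288 against 349, and was 0.339 against 0.423 per extract read. This band held few other bins, as 79 of its 101 bins were deserts. Its deserts had a median of 561 covered 1-kb bins and its other bins 472.5.

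The background was higher the more site bins a 1-Mb bin held, inside the deserts and beyond. The median ChIP background was 351 reads per Mb in deserts without a site bin, 416 with 1, 465 with 2 and 488 with 3. It was 553 and 593 in bins with 4 and 5. The extract medians were 1139, 1287, 1388 and 1447, then 1543 and 1585. For ChIP the rise at the limit of the rule, from 488 to 553, was about as large as that from 351 to 416. It was larger than those from 416 to 465 and from 465 to 488. For the extract the rise at the limit, from 1447 to 1543, was smaller than that from 1139 to 1287 and larger than that from 1388 to 1447.

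The ChIP reads were also split, with deserts chosen from one subset and background counted in the other. Deserts chosen with a random 50% of the ChIP reads, at 5 or more per site bin, numbered 626. The reads not used for choosing gave a background of 212 per Mb in them and 401 in the other bins. Their ratio was 0.530 (0.527 to 0.533), against 0.532 with all reads. Of these 626 deserts, 603 were among the 691. Both subsets are draws from 1 library and were used with the same extract reads, so they were bound to be alike. The split thus measures sampling only and cannot separate the choice of deserts from their background.

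Background was also followed across the edges of the runs of 3 or more deserts. The edges are set by the rule, with a desert on the inner side and none on the outer, so the step at an edge restates the difference between deserts and other bins. The bins inside the run and next to its edge had medians of 430 ChIP and 1296 extract background reads per Mb. The first bin outside had 634 and 1755. From 2 to 5 Mb outside, the medians stayed at 650 to 654 ChIP and 1786 to 1818 extract reads. One bin further inside they were 367 and 1182.

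The first bin outside, which by the rule held at least 4 site bins where it had enough extract reads, had a median of 8 site bins. The median of all bins that were not deserts was 14. At 2 to 5 Mb, where deserts of other runs are counted too, the median was 7, against 9 over all 2362 bins. Deserts were 29.4% to 35.8% of the bins at these distances, near their share of 29.3% over all bins. Some bins lie near more than 1 run and are counted for each.

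**Figure D4:**
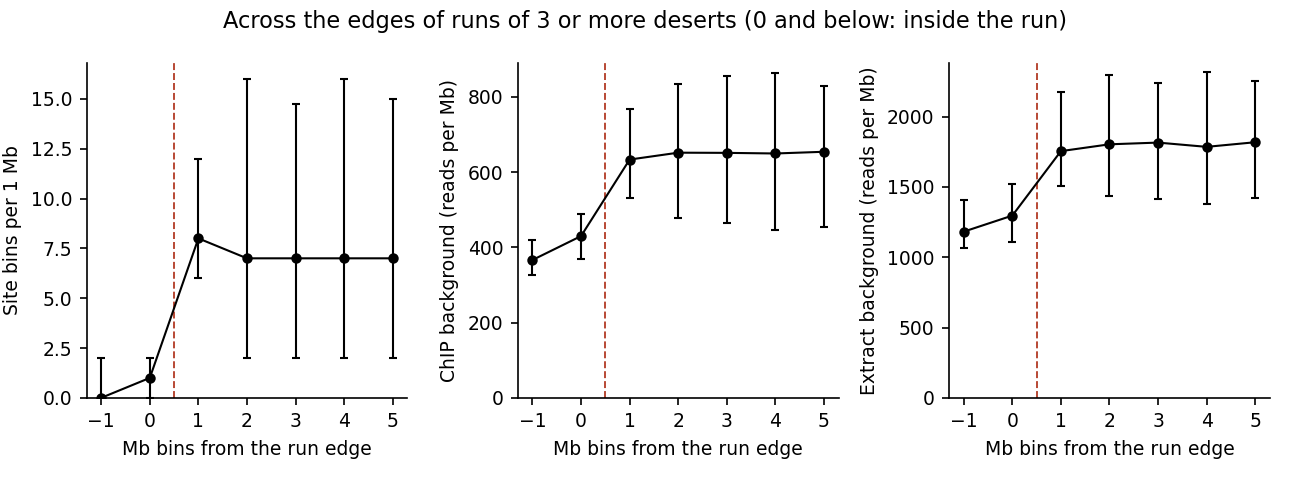
Medians with lower and upper quartiles of site bins per Mb, ChIP background and extract background (reads per Mb) by distance in 1-Mb bins from the edges of the 91 runs of 3 or more deserts. Distances 0 and -1 are inside the run, 1 to 5 outside, and the dashed line is the edge. Across the edge, which the rule itself places, background rises from 430 to 634 reads per Mb in the ChIP and from 1296 to 1755 in the extract, then stays level.

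The site bins that deserts did hold were weaker and more scattered than elsewhere. The 879 site bins had a median of 14 ChIP reads (10 to 53) and 2 extract reads. The 28138 site bins of the other bins had a median of 19 ChIP reads (10 to 146) and 3 extract reads. In deserts 51.1% of site bins held 10 to 14 ChIP reads, against 31.3%, and 8 (0.91%) held 40 or more, against 2071 (7.36%). Both sets reach down to the limit of 10, where the rule cuts them. The same ChIP counts chose the deserts, and a strong site cut by a bin border can count more than once towards the limit of 3. The difference in strength is thus a description and was not tested.

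Spacing followed from the rule in part, since at most 3 site bins fit in a desert. The nearest other site bin was a median of 162 kb away in deserts and 9 kb elsewhere. In deserts 537 of 879 site bins (61.1%) had no other within 100 kb, against 1267 of 28138 (4.5%) elsewhere. Another site bin stood within 10 kb of 90 site bins in deserts (10.2%), against 54% elsewhere. Adjacent 1-kb bins, which can be 1 site cut by a bin border, were 28 (3.19%) in deserts against 20.1%.

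A few site bins in deserts held many reads. The highest lay at chr4:73702001-73703000, inside the run of 10 Mb. It held 53 ChIP reads (22.4 RPM, scaled by the total of the ChIP library; interval of the count 39.7 to 69.3) and 6 extract reads. Another site bin stood 9 kb from it. The next were at chr4:111185001-111186000, with 52 ChIP and 2 extract reads, and at chr2:36036001-36037000, with 51 and 2. The counting intervals of these 3 overlap, so their order is not resolved.

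A site bin at chr7:104073001-104074000 held 44 ChIP and 6 extract reads. One at chr3:22334001-22335000 held 42 ChIP reads and 0 extract reads (interval up to 3.69). It lay in a run of 6 deserts. Bins with 41 ChIP reads lay at chr2:85047001-85048000 and at chr12:51921001-51922000, with 5 and 3 extract reads. Strong sites thus occurred in single deserts as well as in long runs.

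The last 3 of the 10 strongest lay at chr13:3664001-3665000, with 40 ChIP reads, and at chr2:43495001-43496000 and chr13:40988001-40989000, with 39 each. They held 1, 2 and 2 extract reads. The chromosome 2 site bin ended the empty stretch of 4278 kb that began at 39217001, in the run of 9 Mb. The whole 1-Mb bin around it held 614 ChIP reads, so 1 kb gave 39 of them.

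Below the site limit, 1-kb bins with 5 to 9 ChIP and at most 10 extract reads were fewer in deserts than in the other bins. These counts include 1-kb bins next to a site bin, of which the other bins have more by the rule. They also come from the ChIP reads that chose the deserts, so the difference is a description. The median desert held 2 of them (0 to 19) and the median other bin 12 (0 to 67). The other bins near the limit, with 4 site bins, held a median of 5. In 98 deserts there was neither a site bin nor such a weaker bin.

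Most of the 1-kb bins of deserts held no ChIP read at all. Among those with at most 10 extract reads, 67.9% held 0 ChIP reads, 23.8% held 1 and 6.27% held 2. In the other bins 48.9% held 0, 29.7% held 1 and 12.5% held 2. From 1 read upwards each count up to 15 took a smaller share of the 1-kb bins in deserts. Those with 10 or more are site bins, which the rule itself limits in deserts, so their smaller share was set in advance.

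Relative to pairs 600 to 1000 bp apart, opposite-strand pairs of background ChIP reads were as frequent in deserts as in the other bins, within counting error. Fragment ends at a bound site give plus-strand reads upstream and minus-strand reads downstream, about 1 fragment apart. In deserts, minus-strand 5′ ends 150 to 250 bp downstream of a plus-strand 5′ end were 2.07 times as frequent per bp (2.02 to 2.12) as at 600 to 1000 bp, from 8852 and 16993 pairs. In the other bins the ratio was 2.06 (2.04 to 2.08). The intervals of deserts and other bins overlap. The ratio is scaled to the pairs at 600 to 1000 bp of each set, which depend on its read density. Pairs at 150 to 250 bp numbered 8852 for 148055 plus-strand reads in deserts and 68337 for 642373 in the other bins. Per read they were thus fewer in deserts. The distance between strands was not a criterion of the rule, but strand set the direction in which reads were moved before site bins were found and left out.

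The extract showed a much smaller excess, 1.2 (1.19 to 1.21) in deserts and 1.19 (1.18 to 1.2) in the other bins. With 1-kb bins of 5 or more ChIP reads left out, the ChIP ratio was 1.37 (1.33 to 1.42) in deserts and 1.33 (1.31 to 1.35) in the other bins. Pairs share reads, so these intervals are too narrow. The count cannot tell fragments of 1 site from copies of 1 fragment read from both ends.

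**Figure D5:**
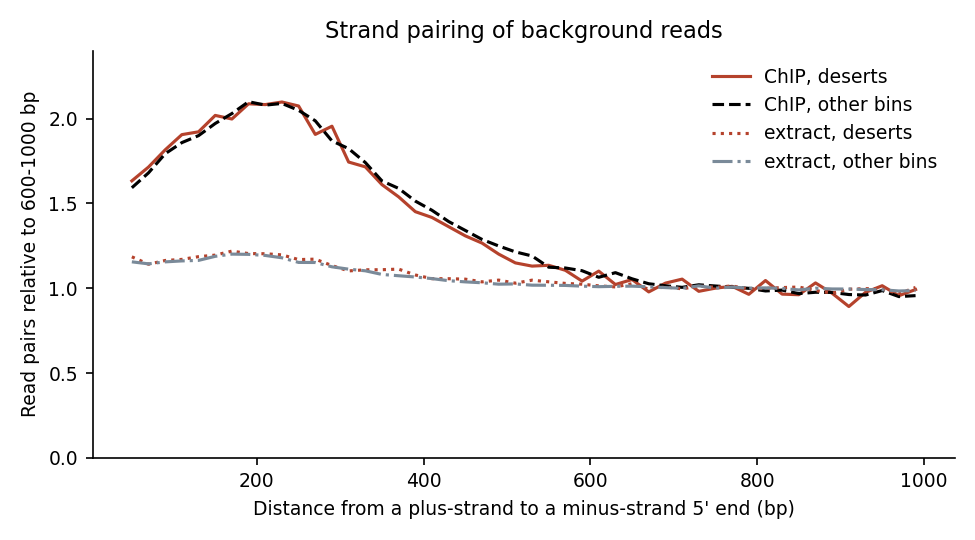
Read pairs of opposite strand in background bins by the distance from plus-strand to minus-strand 5′ end (horizontal axis, bp), relative to the mean at 600 to 1000 bp (vertical axis). Between 150 and 250 bp the ChIP curves of deserts (solid red) and other bins (dashed black) both stand near 2.07, and the extract curves (dotted and dash-dotted) near 1.2.

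Bins with many reads in the extract were few. Of the 691 deserts, 28 contained a 1-kb bin with more than 10 extract reads, 82 such bins in all, and 24 of these also held 10 or more ChIP reads. The rule does not count them as site bins. They lay in 5 deserts, led by chr9:3000001-4000000 with 13, chr17:39000001-40000000 with 5 and chr2:98000001-99000000 with 4. The strongest, at chr17:39452001-39453000, held 258 extract and 81 ChIP reads. The other 1671 bins contained 1280 1-kb bins with more than 10 extract reads, and 185 of those also held 10 or more ChIP reads. Deserts had fewer extract reads to begin with, and these counts were not compared by a test.

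Crowded bins held a good part of the reads of some of these 5 deserts. On chromosome 17, 196 of 597 ChIP reads and 483 of 1390 extract reads were background. On chromosome 2 these were 277 of 495 and 1008 of 1543. Counting the crowded 1-kb bins with 10 or more ChIP reads as site bins would leave 687 deserts.

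The deserts with the lowest ChIP background per extract read lay on chromosomes 1 and 4. The lowest was chr4:112000001-113000000, with 144 ChIP and 953 extract background reads, a ratio of 0.151 (0.126 to 0.180). Its neighbours in the same run had more ChIP reads, 529 on the left and 315 on the right. The other 4 were on chromosome 1 and had ratios of 0.178 to 0.184, with 263 to 308 ChIP reads and no site bin.

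The highest ratio was that of chr14:52000001-53000000, with 314 ChIP and 554 extract background reads (0.567, 0.492 to 0.652). It had 3 site bins and a read in only 338 of its 1-kb bins. The next were chr3:25000001-26000000 (0.470), chr10:30000001-31000000 (0.460), chr8:76000001-77000000 (0.454) and chr13:67000001-68000000 (0.444). Their intervals lie above the median of all deserts, 0.333, but they were picked as the highest ratios, which favours this. All 5 held 2 or 3 site bins, at the upper limit of the rule.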

How the data were processed

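Per the labels, Illumina adapters were ligated, the DNA was amplified over 15 PCR cycles, fragments of about 250 bp with adapters were cut from a gel, and libraries were read on the Genome Analyzer. The authors deposited 1 line per aligned read of 36 bases with its position and strand. Per the submitters' processing notes the build was mm8; which aligner and filters made them is not given in the sources used here. Each position and strand occurs once per library, so PCR copies cannot be counted.

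Read 5′ ends were moved 102 bp towards 3′ and counted in 1-kb and 1-Mb bins from position 0 (Python 3.11.15, numpy 2.4.6, pandas 2.3.3, scipy 1.17.1). Coordinates are counted from 1, taking the files' starts as counted from 0, which they do not state. Libraries were not scaled to each other. The code was tested on simulated bins with planted deserts. The members, limits and alternatives were chosen with earlier results of these data known. Named were the 10 longest runs, the 10 strongest site bins in deserts, the 5 deserts at each end of the ChIP-to-extract ratio, and the 3 chromosomes with the highest and lowest shares; crowded deserts were named after their values were seen. Without replicates there is no test. Intervals are exact Poisson or Clopper-Pearson, except for the desert-to-other quotients of ChIP per extract read. Those intervals are approximate and were taken on a log scale. No annotation or sequence was used.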

Additional observations from a re-analysis of the deposited data

How the results depend on the processing

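The count of 691 deserts ranged from 547 to 886 over 16 settings and the 91 runs of 3 or more from 68 to 118 over 14, all within 1.5 times. The ratios of desert to other background, 0.532 for ChIP and 0.626 for extract, stayed below 1 in all 18 and 20 settings. Many left the narrow counting intervals, and the cause was not tested. For ChIP and extract in turn, they were 0.535 and 0.634 with site bins at 12 or more ChIP reads, 0.525 and 0.624 at most 2 site bins, and 0.546 and 0.632 at most 5. They were 0.554 and 0.654 from 1000 extract reads, 0.536 and 0.634 with 1-Mb bins from 500 kb, 0.535 and 0.631 with 1-kb bins from 500 bp, and 0.534 and 0.628 with adjacent site bins joined. Background definitions gave 0.512 and 0.622 with only site bins left out, 0.562 and 0.628 without 1-kb bins of 5 or more ChIP reads, and 0.636 and 0.749 over covered 1-kb bins. Members from 50% of the ChIP reads gave 0.530 and 0.629. Requiring 600 covered 1-kb bins, chosen after seeing the data, gave 0.545 and 0.644. The extract ratio alone moved with a shift of 75 bp (0.628) and with site bins at 8 or more ChIP reads (0.617). It alone moved too with no limit on extract reads (0.629) and without chromosomes 1 and 4 (0.612). With extract lane 1 or lane 2 alone the extract ratio was 0.613 or 0.642, and the ChIP ratio was not computed for these settings. At a mean of 0.944 ChIP reads per kb, sites of few reads cannot be told from background. No paired analysis was possible because neither group has more than 1 library, and no replicate could be left out.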

Other observations

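Chromosome X lies outside the rule, and its extract reads are low, with a median of 576 per 1-Mb bin. By the same limits, 107 of its 166 bins had 500 or more extract reads, and 69 of these held at most 3 site bins. The 69 bins had medians of 258 ChIP and 622 extract reads. The whole chromosome held 323 site bins. Since the limits are fixed numbers of reads, the share of X was not compared with that of the autosomes.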
